A study of Mus musculus with 10 samples.

Results

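Expression of 9 hypothalamic neuropeptide genes was examined in the whole brain of mice that overexpress Glo1 and of their wild-type littermates. The genes were Avp, Oxt, Hcrt, Pmch, Gal, Trh, Agrp, Cartpt and Ghrh, and each was represented by the brightest probe set that the array annotation assigns to its symbol alone. Of the 9 genes, 8 had such a probe set, 1 each, out of 19938 genes represented on the array in this way; Agrp had none and was not analysed here. The transgenic (Tg) mice carried a bacterial artificial chromosome with Glo1, which encodes the methylglyoxal-detoxifying enzyme glyoxalase 1. The regulatory sequence that drives the transgene and the number of founder lines are not stated in the labels. All mice, 5 Tg and 5 wild type (WT), were untreated, group-housed adult males on a C57Bl/6J background, and each mouse was measured on its own array. Values are the deposited log2 expression values, so a difference of 1 stands for a 2-fold ratio of brightness, and a level on 1 probe set cannot be set against the level on another.

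Neuropeptides are made as precursors, cut and amidated in secretory vesicles, and released to act on G protein-coupled receptors. Most of the genes studied here are expressed in small groups of hypothalamic neurons. Vasopressin (Avp) and oxytocin (Oxt) come from separate magnocellular neurons of the supraoptic and paraventricular nuclei, whose axons end in the posterior pituitary. Hypocretin (Hcrt) and melanin-concentrating hormone (Pmch) mark separate neurons of the lateral hypothalamus that act on wakefulness, sleep and feeding. Thyrotropin-releasing hormone (Trh) and growth hormone-releasing hormone (Ghrh) drive the anterior pituitary. Galanin (Gal) and the cocaine- and amphetamine-regulated transcript (Cartpt) are made more widely, in the hypothalamus and in other brain regions.

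Promoters are shown for the members on which the results turn: Avp with Oxt and Cartpt with Ghrh, the gene pairs that varied together most, and Pmch, which had the lowest p between genotypes. All 8 measured genes matched the RefSeq promoter table of build GRCm38.p6, with 9 windows because Ghrh has 2 start sites. Each sequence runs 5′ to 3′ on the gene's strand and covers the 250 bases before the start site.
Avp, chr2:130582589-130582838, minus strand: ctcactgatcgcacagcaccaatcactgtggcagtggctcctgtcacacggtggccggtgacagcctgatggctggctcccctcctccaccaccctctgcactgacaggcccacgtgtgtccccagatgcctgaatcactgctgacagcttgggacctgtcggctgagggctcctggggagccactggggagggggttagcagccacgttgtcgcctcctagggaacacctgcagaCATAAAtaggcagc
Oxt, chr2:130575919-130576168, plus strand: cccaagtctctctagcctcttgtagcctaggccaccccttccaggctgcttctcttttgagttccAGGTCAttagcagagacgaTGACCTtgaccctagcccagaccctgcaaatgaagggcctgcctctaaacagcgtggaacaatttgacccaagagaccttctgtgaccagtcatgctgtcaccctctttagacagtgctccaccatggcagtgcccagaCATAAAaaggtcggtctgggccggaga
Pmch, chr10:88090822-88091071, plus strand: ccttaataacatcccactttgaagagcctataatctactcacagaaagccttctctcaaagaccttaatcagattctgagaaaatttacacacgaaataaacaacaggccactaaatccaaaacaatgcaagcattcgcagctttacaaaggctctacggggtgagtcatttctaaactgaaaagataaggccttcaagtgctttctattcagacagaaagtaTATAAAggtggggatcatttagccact
Cartpt, chr13:99900684-99900933, minus strand: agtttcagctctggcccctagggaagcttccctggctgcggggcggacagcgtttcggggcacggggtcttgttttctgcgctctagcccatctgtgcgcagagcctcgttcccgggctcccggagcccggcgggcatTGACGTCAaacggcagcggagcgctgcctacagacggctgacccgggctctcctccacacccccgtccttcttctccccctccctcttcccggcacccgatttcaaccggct
Ghrh, distal start, chr2:157346656-157346905, minus strand: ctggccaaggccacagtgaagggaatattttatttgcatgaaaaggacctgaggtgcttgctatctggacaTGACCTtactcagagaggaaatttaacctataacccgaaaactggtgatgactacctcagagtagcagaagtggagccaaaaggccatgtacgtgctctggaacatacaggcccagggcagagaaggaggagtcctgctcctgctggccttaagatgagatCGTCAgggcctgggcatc
Ghrh, proximal start, chr2:157337427-157337676, minus strand: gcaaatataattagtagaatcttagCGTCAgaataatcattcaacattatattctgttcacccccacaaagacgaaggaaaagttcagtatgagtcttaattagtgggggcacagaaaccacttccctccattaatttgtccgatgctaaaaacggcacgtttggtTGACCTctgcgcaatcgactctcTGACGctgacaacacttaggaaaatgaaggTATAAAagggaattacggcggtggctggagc
Capitals mark matches to 4 motifs, chosen after the sequences were seen. TATAAA, the common TATA box, and CATAAA, a variant of it, were searched on the gene's strand. TGACG, a half-site of the cAMP response element, and AGGTCA, a half-site of nuclear receptors, were searched on both strands, where they read CGTCA and TGACCT. Among all 32851 windows of the same length, 7.59% held TATAAA, 5.98% CATAAA, 17.8% TGACG and 14.0% AGGTCA. Avp and Oxt, neighbouring genes on chromosome 2, were the 2 members with CATAAA, which started 14 bases before the Avp start site and 27 bases before that of Oxt. The longest run shared by both windows, CAGACATAAA, contained it. TATAAA was found in 3 members, Hcrt, Pmch and Ghrh. TGACG was found in 3, Trh, Cartpt and Ghrh, and in Cartpt a match on each strand overlapped. AGGTCA was found in Oxt, Trh and Ghrh. These are letter matches in a fixed window, and binding was not measured.

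Before the genotypes were compared, 2 arrays had to be set apart. The replicate 2 arrays of both genotypes read far higher for anterior pituitary hormones than the other 8. Growth hormone (Gh) read 13.14 in Tg replicate 2 and 13.46 in WT replicate 2, against 7.47 to 8.25 elsewhere, and prolactin (Prl) read 12.09 and 12.48, against 5.87 to 6.62. The mean of 13 pituitary markers was 8.43 and 8.66 on these arrays and 6.87 to 7.10 on the rest. WT replicate 2 in addition read low for the cerebellum: the mean of 13 cerebellar markers was 8.23 there and 10.42 to 10.66 on the other 9 arrays, and Gabra6, a granule cell receptor subunit, was at 6.03 against 10.84 to 11.29. Tg replicate 2 had cerebellar markers like the other arrays (10.47). The mean of the 2 blood markers measured, Alas2 and Slc4a1, was also high in WT replicate 2, at 8.99 against 7.66 to 7.92 on the other 9 arrays. The general neuronal gene Snap25 lay between 13.59 and 13.88 on all arrays, and Glo1, the check of the labels, was 1.50 log2 units higher in Tg (limma adjusted p = 1.53e-05). In whole-brain RNA, fewer cells of a type and less RNA per cell cannot be told apart, and the genotype differences are therefore given over all 10 arrays and over the 8 without replicate 2.

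No measured neuropeptide gene differed between Tg and WT brain past the adjusted threshold of 0.05. By limma, 0 of 8 passed, against 0.0345% of all probe sets, and 1 of 8, Pmch, had an unadjusted p below 0.05, against 2.21% of all probe sets. The median difference, Tg minus WT, was -0.04 over the 8 genes and -0.0031 over all 28944 probe sets. In none of the 8 genes were the Tg and WT arrays fully separated, as they were in 0.46% of all probe sets. The adjusted p was 0.9998 for each of the 8 genes (limma, n = 5 per genotype). The median standard error was 0.093 for the members and 0.063 over all probe sets.

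**Figure D1:**
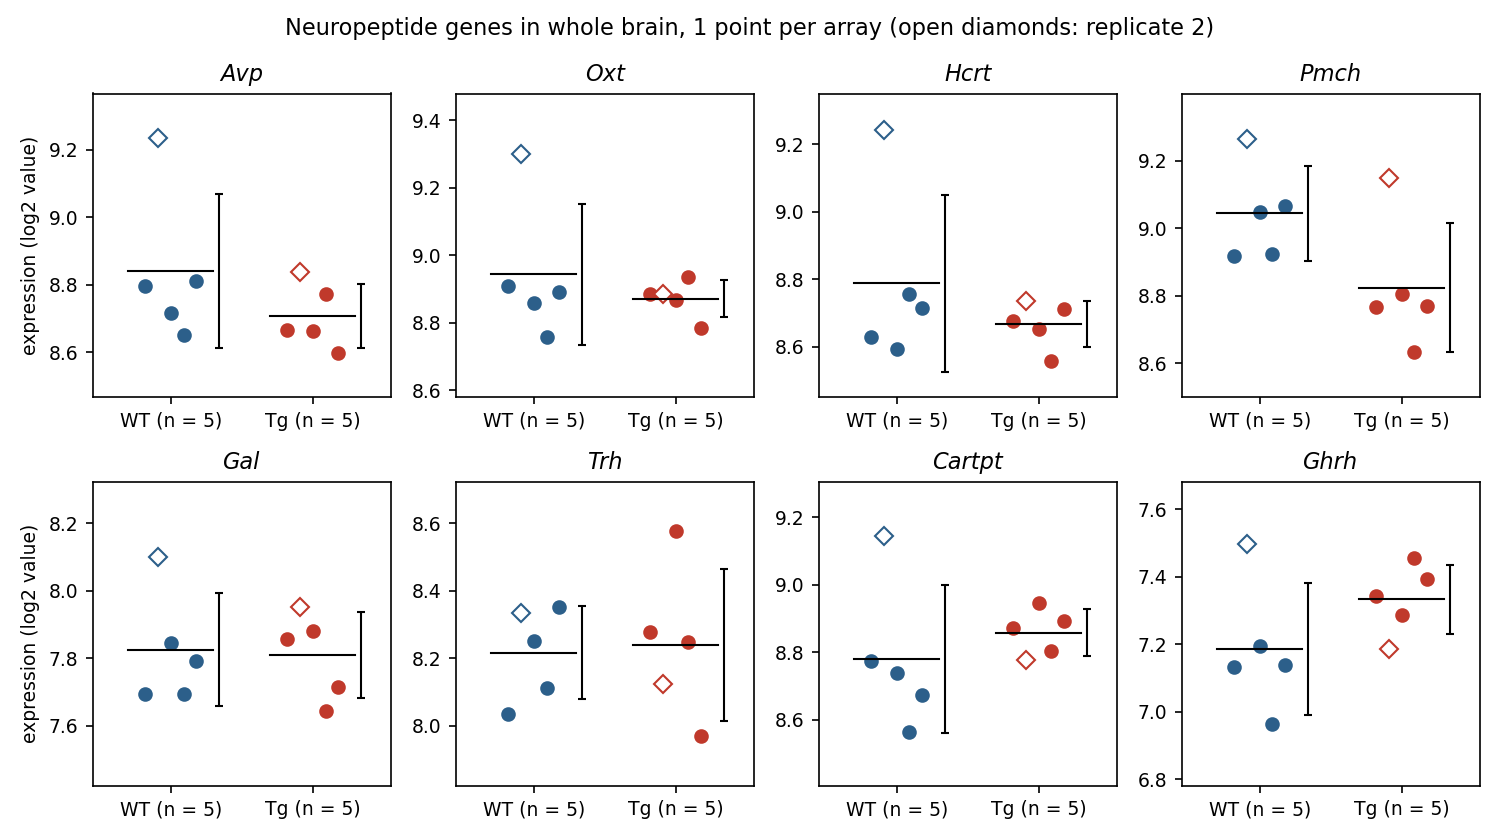
Expression (log2 value) of the 8 measured neuropeptide genes on each array, with WT on the left and Tg on the right of each panel; horizontal lines are means of 5 arrays, vertical bars are SDs, open diamonds are the replicate 2 arrays and every vertical axis spans the same number of log2 units. WT replicate 2 is the highest of the 10 arrays in every panel except that of Trh.

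Pmch, the precursor of melanin-concentrating hormone, was the member with the lowest p. The 5 Tg arrays, replicates 1 to 5 in order, read 8.77, 9.15, 8.81, 8.63 and 8.77, and the 5 WT arrays 8.92, 9.27, 9.05, 8.92 and 9.07. In both genotypes replicate 2 was the highest array. The Tg mean was 8.82 ± 0.19 and the WT mean 9.04 ± 0.14 (SD, n = 5 each), a difference of -0.22 (95% confidence interval -0.43 to -0.01; two-sided exact permutation p = 0.06349). Only Tg replicate 2 reached the WT range. Without both replicate 2 arrays the Tg values ended at 8.81 and the WT values began at 8.92, so that the genotypes did not overlap. That difference was -0.24 (-0.37 to -0.12), or 0.844 times the WT level, with an exact permutation p of 0.02857, the smallest that 4 against 4 arrays can give, and a limma adjusted p of 0.486. When arrays were dropped 1 at a time, the difference lay between -0.30 (Tg replicate 2 dropped) and -0.16 (WT replicate 2 dropped).

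Ghrh, which encodes growth hormone-releasing hormone, pointed the other way. Its probe set was dim, with a mean level of 7.26 that lay at percentile 37.4 of all probe sets. It read 7.34, 7.19, 7.29, 7.46 and 7.39 on Tg replicates 1 to 5 and 7.13, 7.50, 7.20, 6.96 and 7.14 on WT replicates 1 to 5. WT replicate 2 was the highest of all 10 arrays, while Tg replicate 2 was the lowest of the Tg arrays. The means were 7.33 ± 0.10 in Tg and 7.19 ± 0.19 in WT (SD, n = 5 each), a difference of 0.15 (-0.05 to 0.34; exact permutation p = 0.1825). Once both replicate 2 arrays were left out, every Tg value lay above every WT value. The difference was then 0.26 (0.13 to 0.39), 1.20 times the WT level (exact permutation p = 0.02857; limma adjusted p = 0.486). Over single arrays dropped in turn it was smallest, 0.09, when WT replicate 4 was dropped and largest, 0.22, when WT replicate 2 was.

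Cartpt, the precursor of the CART peptides, followed the pattern of Ghrh. Tg replicates 1 to 5 read 8.87, 8.78, 8.95, 8.80 and 8.89, and WT replicates 1 to 5 read 8.77, 9.14, 8.74, 8.56 and 8.67. WT replicate 2 was again the highest array and Tg replicate 2 the lowest in its genotype. The means of 8.86 ± 0.07 in Tg and 8.78 ± 0.22 in WT (SD, n = 5 each) differed by 0.08 (-0.12 to 0.28; exact permutation p = 0.4683). On the 8 other arrays the genotypes separated, with Tg above WT by 0.19 (0.07 to 0.31), 1.14 times the WT level. The exact permutation p was 0.02857 and the limma adjusted p 0.486. Dropping WT replicate 4 alone gave 0.026, and dropping WT replicate 2 alone gave 0.17, the ends of the range over single arrays.

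On the 8 arrays without replicate 2, the genotypes were fully separated in 3 of 8 members, against 4.77% of all probe sets: Pmch with Tg below WT (2.13% of all probe sets were in that order), and Cartpt and Ghrh with Tg above (2.64%). At an unadjusted limma p below 0.05 the count was 3 of 8 against 9.74%, and after adjustment 0 of 8 against 0.038%. The members' median difference on these arrays was 0.02. Markers of some other regions mostly differed in the same direction on the 8 arrays. Over all 28944 probe sets, 15534 were higher in Tg on these arrays and 13410 lower. Cerebellar markers averaged 10.42 to 10.54 on the 4 Tg arrays and 10.59 to 10.66 on the 4 WT arrays, with 12 of 13 lower in Tg. Olfactory bulb markers averaged 8.25 to 8.78 in Tg and 8.09 to 8.37 in WT, with 7 of 8 higher in Tg. Pituitary markers averaged 7.02 to 7.10 in Tg and 6.87 to 7.04 in WT, with 12 of 13 higher in Tg and a median difference of 0.15. Striatal markers averaged 10.46 to 10.53 in Tg and 10.54 to 10.56 in WT, with 8 of 8 lower in Tg. Thalamic markers were lower in Tg in 6 of 10 (median difference -0.0059) and cortical and hippocampal markers in 6 of 10 (-0.0097). Choroid plexus markers were lower in 6 of 8 (-0.0185). Eomes, the cerebellar marker that was higher in Tg, at 0.45, is also in the olfactory bulb list. Across the 8 arrays, r with the pituitary marker mean was -0.86 for Pmch, 0.66 for Cartpt and 0.73 for Ghrh, and with the cerebellar marker mean 0.88, -0.66 and -0.87. With the median of all probe sets on each array, r was -0.675 for Pmch, 0.665 for Cartpt and 0.673 for Ghrh. These arrays share the genotype split in the markers and the genes, so the r values are descriptions. With the cerebellar marker mean as a covariate over all 10 arrays, the differences were -0.18 for Pmch, 0.14 for Cartpt and 0.20 for Ghrh (limma adjusted p = 0.601, 0.566 and 0.566), and with the pituitary marker mean -0.23, 0.07 and 0.14. The part of the regional markers in the values of these 3 genes was not tested beyond these fits.

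**Figure D2:**
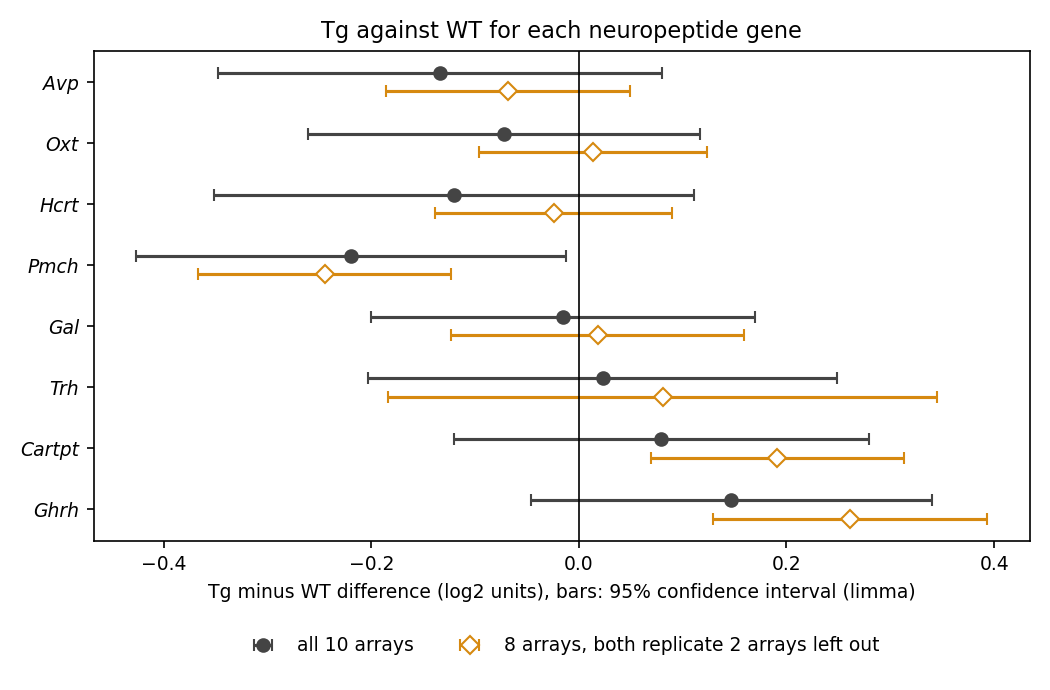
Tg minus WT difference (log2 units, horizontal axis) of each gene with its 95% confidence interval from limma, over all 10 arrays (filled circles) and over the 8 arrays without replicate 2 (open diamonds). Without replicate 2 the intervals of Pmch (-0.37 to -0.12), Cartpt (0.07 to 0.31) and Ghrh (0.13 to 0.39) leave 0, although none passes after adjustment over all probe sets.

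The magnocellular hormones were close in both genotypes once WT replicate 2 was set aside. Avp, the vasopressin precursor, read 8.67, 8.84, 8.66, 8.77 and 8.60 on Tg replicates 1 to 5 and 8.80, 9.23, 8.72, 8.65 and 8.81 on WT replicates 1 to 5. WT replicate 2 lay 0.42 above the next WT array. The means were 8.71 ± 0.10 in Tg and 8.84 ± 0.23 in WT (SD, n = 5 each), with a difference of -0.13 (-0.35 to 0.08; exact permutation p = 0.2698), which became -0.07 (-0.19 to 0.05) without both replicate 2 arrays and -0.04 without WT replicate 2 alone. Oxt, the oxytocin precursor, read 8.89, 8.89, 8.87, 8.94 and 8.78 in Tg and 8.91, 9.30, 8.86, 8.76 and 8.89 in WT. Its Tg arrays spanned a narrow range inside that of WT. The means were 8.87 ± 0.06 and 8.94 ± 0.21, a difference of -0.07 (-0.26 to 0.12; exact permutation p = 0.7063) that turned to 0.01 (-0.10 to 0.12) without both replicate 2 arrays.

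Hcrt, the precursor of the wake-promoting hypocretins, had its highest value on the same array. It read 8.67, 8.74, 8.65, 8.56 and 8.71 in Tg and 8.63, 9.24, 8.59, 8.76 and 8.71 in WT, and WT replicate 2 lay above all other arrays. The means of 8.67 ± 0.07 and 8.79 ± 0.26 (SD, n = 5 each) differed by -0.12 (-0.35 to 0.11; exact permutation p = 0.4524), and by -0.02 (-0.14 to 0.09) without both replicate 2 arrays. Without WT replicate 2 alone the difference was -0.0067. Hcrt and Pmch neurons both lie in the lateral hypothalamus; whether the genotype differences of these genes differ from each other was not tested.

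Over all 10 arrays Gal and Trh were nearest to 0. Galanin read 7.86, 7.95, 7.88, 7.64 and 7.71 in Tg and 7.69, 8.10, 7.84, 7.69 and 7.79 in WT, a difference of -0.02 (-0.20 to 0.17) that was 0.02 (-0.12 to 0.16) without both replicate 2 arrays. The genotypes overlapped over most of their range. Trh read 8.28, 8.12, 8.58, 8.25 and 7.97 in Tg and 8.04, 8.33, 8.25, 8.11 and 8.35 in WT, a difference of 0.02 (-0.20 to 0.25) that was 0.08 (-0.18 to 0.35) without both replicate 2 arrays. Trh was also the member whose extremes fell on other arrays, with Tg replicate 3 highest and Tg replicate 5 lowest. Its range over the 10 arrays, 0.61, was the same without replicate 2, while that of Avp fell from 0.64 to 0.21 and that of Hcrt from 0.68 to 0.20. An interval that holds 0 does not show that the genotypes were equal.

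The replicate 2 arrays shared some departures, in Pmch, Gal, Avp and Hcrt, and differed in others. In WT replicate 2, 7 of 8 members were at their highest of the 10 arrays, and Trh ranked at 3. Over all probe sets 36.5% were highest on that array, and 39.8% of the 8217 probe sets within the members' range of mean levels (7.26 to 8.93). Relative to the mean of the other 4 WT arrays, Hcrt was 0.57 higher (1.48-fold), Avp 0.49 (1.41-fold), Cartpt 0.46 (1.37-fold) and Oxt 0.45 (1.36-fold). The other WT arrays varied by an SD of 0.07 to 0.09 for these genes. Ghrh was 0.39 higher there, Gal 0.35, Pmch 0.28 and Trh 0.15. The median over the 8 members was 0.42, against 0.09 over all probe sets and 0.10 over those of like brightness.

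In Tg replicate 2, which shared the high pituitary transcripts but kept its cerebellar signal, the departures were mostly smaller and ran in both directions. It lay above the range of the other 4 Tg arrays in 4 members (Pmch, Gal, Avp and Hcrt), below it in 2 (Cartpt and Ghrh) and inside it in 2 (Oxt and Trh). Pmch was furthest, at 0.40 above their mean (1.32-fold; the other 4 Tg arrays had an SD of 0.08), a difference larger than in 99.6% of all probe sets. Gal was 0.18 higher and Avp 0.16, where the SDs of the other 4 arrays were 0.11 and 0.07. Hcrt was 0.09 and Oxt 0.02 higher, while Cartpt was 0.10, Trh 0.14 and Ghrh 0.18 lower on the log2 scale. The median over the 8 was 0.05 and over all probe sets 0.0024. The 4 members above the range compare with 21.3% of all probe sets highest in Tg on replicate 2. The share of all probe sets lowest in Tg on that array was not counted. Those 4 were also highest within WT on replicate 2, but so were 7 of the 8 members and 49.6% of all probe sets. These arrays were singled out by transcripts measured in them, so these are values and no test was made.

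**Figure D3:**
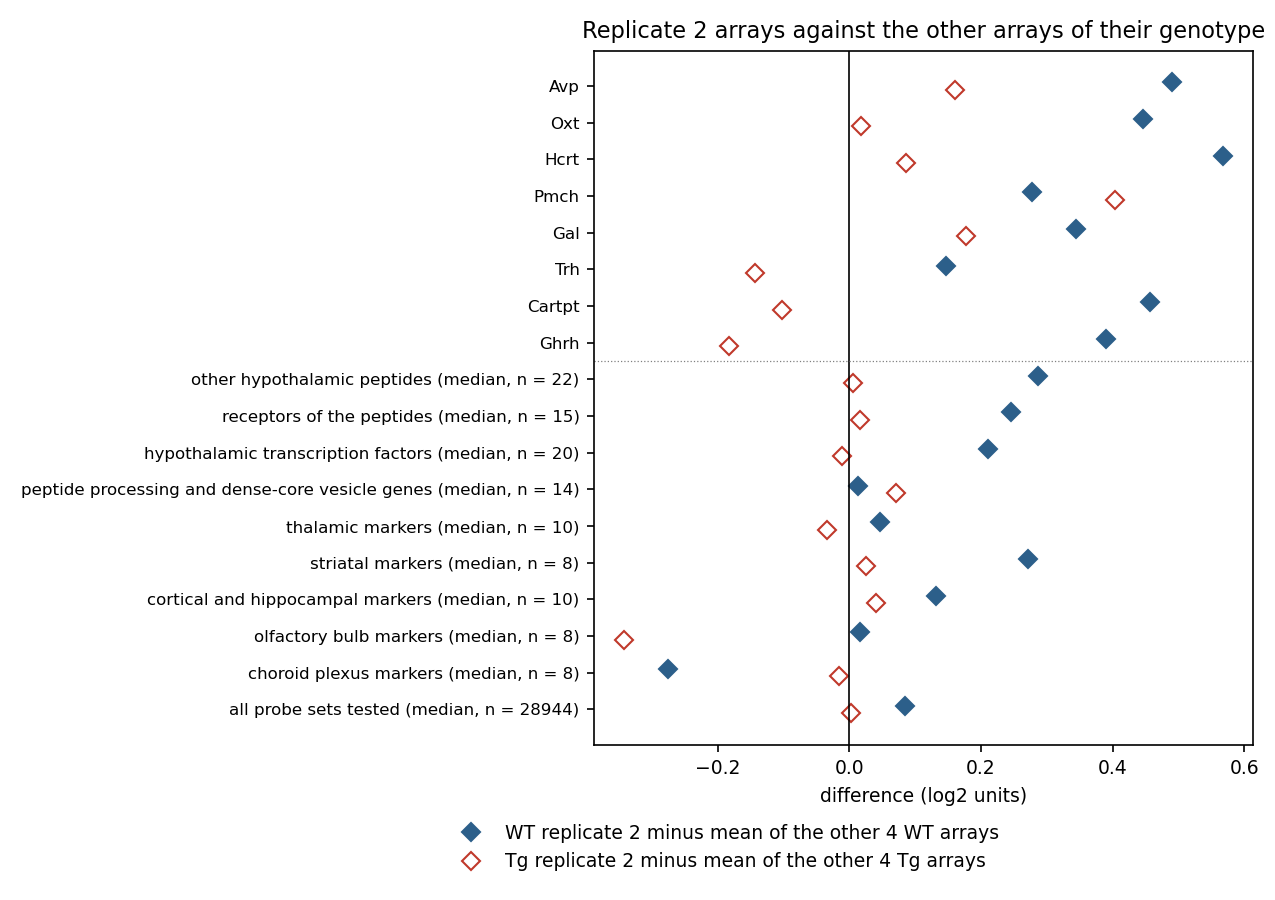
Difference (log2 units, horizontal axis) between each replicate 2 array and the mean of the other 4 arrays of its genotype, for the 8 members (top) and as medians of gene lists (bottom); filled diamonds are WT replicate 2 and open diamonds Tg replicate 2. Hcrt stands 0.57 higher in WT replicate 2 and 0.09 higher in Tg replicate 2, while Pmch is higher in both.

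Other hypothalamic genes showed a smaller shift in WT replicate 2. Its median was 0.29 for 22 other peptides found in the hypothalamus, of which 13 were at their highest of 10 arrays, and 0.21 for 20 hypothalamic transcription factors, of which 10 were. Striatal markers had a median of 0.27, cortical and hippocampal markers 0.13 and thalamic markers 0.05. Of these, 6 of 8 striatal, 6 of 10 cortical and hippocampal and 2 of 10 thalamic markers were at their highest on that array. Over all probe sets the share was 36.5%, so such counts were not particular to hypothalamic genes. Pomc, which is made in arcuate neurons and in pituitary cells, read 8.40 in WT replicate 2 and 7.68 in Tg replicate 2, against 7.11 to 7.31 on the other arrays. The medians of these lists in Tg replicate 2 lay between -0.03 and 0.04. The median shift of the 2 blood markers in WT replicate 2 was 1.17. The part that the low cerebellar signal and the high blood and pituitary markers of WT replicate 2 take in its higher neuropeptide values was not tested.

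The members varied together across arrays, largely through WT replicate 2. Of 28 pairs, 27 had a positive Pearson correlation over the 10 arrays, with a median r of 0.57. After adjustment over the 28 pairs, 2 passed by Pearson's r and 0 by Spearman's rho. Without both replicate 2 arrays the median r was 0.05, 17 pairs were positive and 11 negative, and 0 passed after adjustment; 4 had an unadjusted exact permutation p below 0.05. Without WT replicate 2 alone the median r was 0.13. The number of pairs past the threshold was 0 without Tg replicate 5 or without WT replicate 1, 2, 4 or 5, and 1 without Tg replicate 1 or 2. Over the 10 arrays, the members' r with the median of all probe sets ranged from 0.03 for Trh to 0.84 for Oxt and Cartpt. Without both replicate 2 arrays it ranged from -0.675 for Pmch to 0.673 for Ghrh. The part of shifts common to an array in the covariation was not tested.

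**Figure D4:**
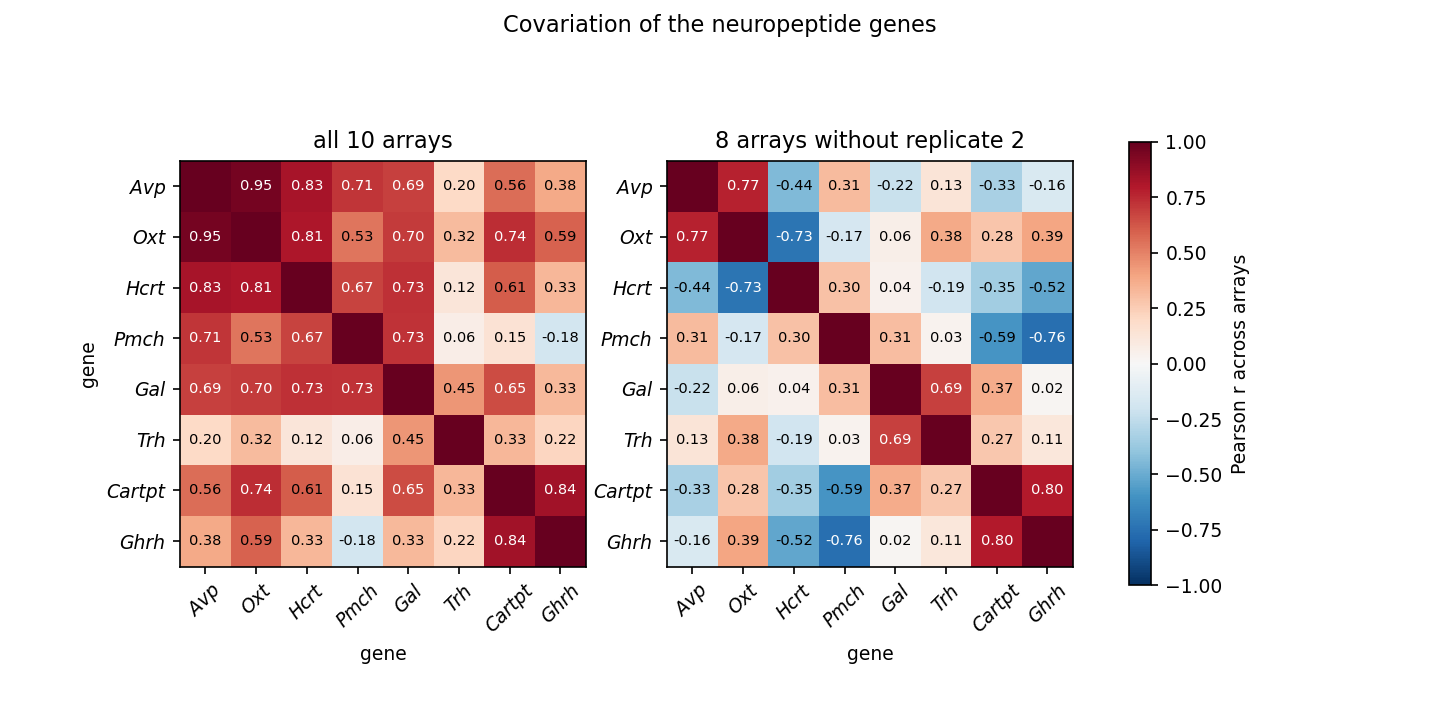
Pearson r of each pair of the 8 genes (rows and columns; colour scale from -1 to 1) over all 10 arrays on the left and over the 8 arrays without replicate 2 on the right. Avp with Oxt (0.95 and 0.77) and Cartpt with Ghrh (0.84 and 0.80) stay high in both, whereas the correlations of Hcrt with Avp and with Oxt turn negative.

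Avp and Oxt formed the closest pair. Their r was 0.95 over 10 arrays (permutation p = 0.00116, adjusted p = 0.0325) and their rho 0.83 (permutation p = 0.00482, adjusted p = 0.0675). With any array but WT replicate 2 left out, r stayed at 0.95 to 0.97, while the adjusted p rose to 0.0505 without WT replicate 5, 0.0543 without WT replicate 4, 0.0641 without WT replicate 1 and 0.074 without Tg replicate 5 (exact permutation tests). Without WT replicate 2, r was 0.73 (adjusted p = 0.308). Without the 2 arrays farthest from the Avp median, Tg replicate 5 and WT replicate 2, r was 0.62. On the 8 arrays r was 0.77 (exact permutation p = 0.026, adjusted p = 0.273) and rho 0.81. The relation was thus positive with and without the outlying array, and on the 8 arrays it did not pass after adjustment.

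Cartpt and Ghrh were the other pair past the threshold. Their r was 0.84 over 10 arrays (permutation p = 0.00288, adjusted p = 0.0403) and their rho 0.83 (permutation p = 0.00477, adjusted p = 0.0675). Dropping 1 array at a time gave r of 0.75 (WT replicate 4 dropped) to 0.94 (Tg replicate 4 dropped), and 0.79 when WT replicate 2 was dropped. Leaving out WT replicate 2 and WT replicate 4, the arrays farthest from the Cartpt median, gave 0.61. On the 8 arrays r was 0.80 (exact permutation p = 0.0183, adjusted p = 0.273), but the genotypes are separated in both genes there. With deviations from each genotype's mean on those arrays, r was 0.30. The same holds for Pmch and Ghrh, with an r of -0.76 on the 8 arrays and 0.0077 for deviations from the genotype means.

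Hcrt changed most with the choice of arrays. Over 10 arrays its r was 0.83 with Avp and 0.81 with Oxt (permutation p = 0.0665 and 0.0974), and the rho values were 0.22 and -0.05. On the 8 arrays both turned negative, to -0.44 with Avp and -0.73 with Oxt (exact permutation p = 0.271 and 0.039, adjusted p = 0.809 and 0.273). Pmch correlated with Hcrt at 0.67 over 10 arrays and 0.30 over the 8, and with Gal at 0.73 and 0.31. The positive r values of Hcrt with Avp and Oxt over 10 arrays rest on WT replicate 2; without that array alone they were -0.16 and -0.62.

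**Figure D5:**
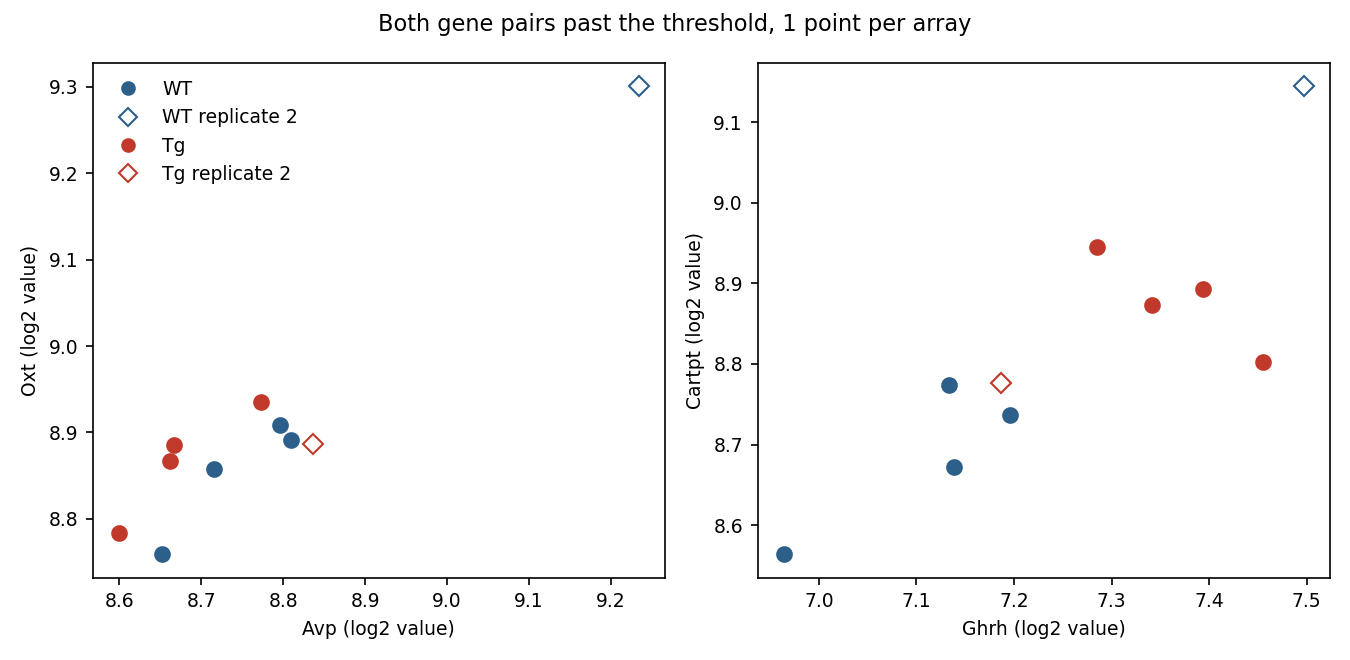
Values (log2) on each array of Oxt against Avp on the left and of Cartpt against Ghrh on the right; circles are replicates 1, 3, 4 and 5, open diamonds replicate 2, blue WT and red Tg. WT replicate 2 lies at the upper right in both panels; in the right panel the 4 Tg circles lie to the upper right of the 4 WT circles.

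Among 12902 other genes in the upper 60% of probe sets by level, many followed the members across arrays. The 5 genes most like the members' mean over 10 arrays were Cdk18 (r = 0.98), Pianp (0.97), Rtn4rl2 (0.97), Dpp3 (0.96) and Nsmf (0.96), and 131 genes had an r above 0.9. Their r values on the 8 arrays were 0.78 to 0.89. The genes most like Avp were Slc9a2, Spg11 and Slc29a1 (r = 0.96 each, 0.70 to 0.76 on the 8 arrays). Those most like Oxt were Atg9a, Ubxn6 and Klhl26 (0.97 each, 0.78 to 0.91 on the 8 arrays), and those most like Hcrt were Dglucy (0.99), Poc1a (0.97) and Lmtk3 (0.97), with 0.75 to 0.86 on the 8 arrays. Nop9, Dip2a and Anks6 were most like Pmch (0.94 to 0.95, and 0.89 to 0.93 on the 8 arrays), Plekha7, B3gnt9 and Rnpepl1 most like Gal (0.92 to 0.94, and 0.71 to 0.86 on the 8 arrays), and Rab3b, Clptm1 and Castor1 most like Trh (0.95 to 0.96, and 0.95 to 0.98 on the 8 arrays). Trem2, Zfp618 and Klc4 were most like Cartpt (0.95 to 0.98, and 0.91 to 0.97 on the 8 arrays), and Pcolce, Mir615 and Ascl5 most like Ghrh (0.95 to 0.97, and 0.94 to 0.97 on the 8 arrays). These are descriptions over 10 arrays, chosen as the highest of 12902.

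The receptors of the peptides did not differ past the threshold. Over 10 arrays, by limma, 0 of 15 passed after adjustment and 0 had an unadjusted p below 0.05; 7 had higher and 8 lower means in Tg, with a median difference of -0.02. Mc3r, a melanocortin receptor, differed by -0.13 (95% interval -0.32 to 0.05) and Galr3, a galanin receptor, by 0.10 (-0.03 to 0.23). For vasopressin the differences were 0.05 for Avpr1a, -0.02 for Avpr1b and 0.05 for Avpr2, and for the oxytocin receptor Oxtr 0.07 (-0.06 to 0.19). Hcrtr1 and Hcrtr2, the hypocretin receptors, differed by -0.02 each, and Mchr1, the receptor for melanin-concentrating hormone, by -0.07 (-0.18 to 0.05). Galr1 differed by -0.06, Galr2 by 0.06, Trhr by -0.07, Trhr2 by 0.06, Mc4r by -0.05 and Ghrhr by 0.09. On the 8 arrays without replicate 2, 0 of 15 passed after adjustment and 4 had an unadjusted limma p below 0.05, against 9.74% of all probe sets. These were Avpr2 at 0.14, Galr3 at 0.15, Oxtr at 0.11 and Ghrhr, which is also a pituitary marker, at 0.15. The genotypes were fully separated in 3 of 15, Avpr2, Galr3 and Oxtr, all with Tg above WT, against 4.77% of all probe sets in either direction. The median difference was 0.08, and Mchr1 differed by -0.0061, where Pmch differed by -0.24.

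Genes that process and store neuropeptides were likewise below the threshold, with 0 of 14 measured passing and a median difference of -0.0062. The convertase Pcsk1 differed by 0.04 (-0.16 to 0.24), the carboxypeptidase Cpe by -0.0019 (-0.08 to 0.07) and the amidating enzyme Pam by 0.0049 (-0.08 to 0.09). The lowest p values belonged to Ptprn2, a dense-core vesicle protein, at -0.09, and Pcsk1n, a convertase inhibitor, at -0.15. Pcsk2 had no probe set of its own. Among the other hypothalamic peptides 0 of 22 passed, with a median difference of 0.04; Nms, neuromedin S, differed by 0.13 (-0.01 to 0.27) and Nppc, C-type natriuretic peptide, by 0.07. Among the hypothalamic transcription factors 0 of 20 passed, with a median of 0.03. Isl1 differed by -0.14 (-0.30 to 0.01) and Dlx1 by 0.24 (-0.09 to 0.57). Dlx1 was highest on Tg replicates 3 and 4, at 9.72 and 9.37. The olfactory bulb marker mean was also highest on these arrays, at 8.78 and 8.72. On Tg replicate 1 Dlx1 read 9.30 and the olfactory bulb marker mean was 8.43. A link between Dlx1 and these markers was not tested. At an unadjusted p below 0.05, limma gave 0 genes in these 3 lists over 10 arrays. Without replicate 2 it again gave 0 after adjustment, and unadjusted p values below 0.05 for 0 of 22 other peptides, 1 of 14 processing genes and 5 of 20 transcription factors, against 9.74% of all probe sets. The processing gene was Cadps2, a vesicle priming protein, at -0.15, and it read 9.49 in WT replicate 2 against 10.17 to 10.24 in the other WT arrays. The transcription factors were Nkx2-1 at 0.17, Hmx2 at 0.13, Nr5a1 at 0.20, Six6, which is also a pituitary marker, at 0.17, and Lhx1 at -0.16. Lhx1, like Cadps2, was lowest of the 10 arrays in WT replicate 2, where the cerebellar markers were also low. It read 7.28 there, a difference of -1.07 from the mean of the other WT arrays. The part of the cerebellar signal in the genotype differences of Lhx1 and Cadps2 was not tested. These 6 genes were chosen after their values were seen. The genotypes were fully separated on the 8 arrays in 2 of 22 other peptides, 1 of 14 processing genes and 1 of 20 transcription factors. Of all probe sets, 4.77% were. The list medians on the 8 arrays were 0.08 for the other peptides, -0.01 for the processing genes and 0.06 for the transcription factors.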

How the data were processed

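The labels' protocols describe whole-brain RNA from 10 mice, isolated with TRIzol, cleaned on RNeasy columns and hybridised to Affymetrix arrays, 1 mouse each. Samples within a genotype are called biological replicates. The authors deposited log2 expression values; Affymetrix Expression Console (version 1.1.2) is named in the submitters' processing notes. How background, normalization and probe summaries were set is not given there, and the log2 scale was read from the range of values, 3.28 to 14.7. Such values can understate ratios, more so for dim probe sets, and the number of arrays limits the precision.

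Rows whose identifiers lie below those of all annotated probe sets (6612 of 35556, 18.6%) were taken as controls and left out. Of the 28944 probe sets tested, 21789 had 1 gene, 1621 several and 5534 none named here. Symbols were updated through Entrez identifiers to GRCm38.p6 for 21698, and 91 kept the platform's symbol. The genotypes were compared with limma 3.58.1 (R 4.3.3; lmFit, eBayes, no covariate), and p values were adjusted by Benjamini-Hochberg over all 28944. Single values also had a two-sided exact permutation test, over 252 assignments of arrays for 5 against 5 and 70 for 4 against 4. Correlation p values came from 100000 permutations over 10 arrays and from all orders over 8 or 9, adjusted over 28 pairs (Agrp had no probe set). The limma code was tested on simulated data.

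Members and lists were chosen with earlier results of these data known. Named were the members, all their receptors, 4 processing enzymes, the 2 genes of lowest p in each other list of peptide genes, processing genes and transcription factors, the genes of highest Pearson r to each member and to their mean, Glo1 and defining region markers. Pomc and the promoter motifs were chosen after values or sequences were seen. Alternatives covered normalization, a filter on dim probe sets, variance models, weights, pairing, marker covariates and the arrays used.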

Additional observations from a re-analysis of the deposited data

Results flagged for a closer look

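Dixon's test at the 95% level was applied to the 16 combinations of a member and a genotype. In 3 of them, 1 array lay far from the other 4 of its group. All were WT replicate 2: Avp at 9.23, Oxt at 9.30 and Hcrt at 9.24, each the highest WT array. That array was the highest in WT for 49.6% of all probe sets. Chance gives about 1 in 20 for a single combination, but the 16 share the same arrays and are not independent. The share of all probe sets that this test picks out is not given here. The same test picked out region markers. These belong to the marker lists by which the replicate 2 arrays were set apart, so this outcome was known beforehand and adds no support. Prl read 12.09 in Tg replicate 2 and 12.48 in WT replicate 2, and Gh read 13.14 and 13.46, each the highest of its genotype. Gabra6 at 6.03 and Cbln1, a protein secreted by granule cells, at 9.09 were lowest in WT replicate 2.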

How the results depend on the processing

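In each alternative run, 0 members passed the threshold. The filter on dim probe sets, the variance model, the replicate block and the mean of probe sets cannot change a member's difference. Direction could turn only in the other runs, and Avp, Hcrt, Pmch, Cartpt and Ghrh kept theirs in all of those. Ghrh, outside the upper 60% of probe sets, had no value with that filter. Cartpt ranged from 0.026 to 0.17 and Ghrh from 0.09 to 0.22 with single arrays left out. Gal, Oxt and Trh, and the members' median difference (-0.08 to 0.03 with single arrays left out), did not keep their direction. Gal turned to 0.042 with array weights, 0.030 with the cerebellar marker mean as a covariate and 0.018 without both replicate 2 arrays, and ranged from -0.051 to 0.054 with single arrays left out. Oxt turned to 0.014 without both replicate 2 arrays and ranged from -0.12 to 0.017 with single arrays left out. Trh ranged likewise from -0.061 to 0.090. The median r of the pairs was 0.049, with 0 pairs passing, when both replicate 2 arrays were left out, and 1 pair passed with quantile normalization. With single arrays left out the median r ranged from 0.13 to 0.64, and 0 to 3 pairs passed. Same-numbered arrays had deviations that correlated at 0.0066, 0.33, 0.45, -0.47 and 0.097, and 2 of 5 Tg arrays correlated best with their own number, so the numbers were not taken as pairs. The replicate block left the Pmch difference at -0.22, as it must when each number holds 1 array of each genotype. Only its p could change (limma unadjusted p = 0.001649, adjusted p = 0.999). With the block 0 members passed, and 11 probe sets passed in place of 10. The causes were not tested.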

Other observations

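When deviations from each genotype's mean were taken on the 8 arrays without replicate 2, Avp and Oxt had an r of 0.94 and Pmch and Gal an r of 0.85; over the values themselves these were 0.77 and 0.31. Hcrt and Oxt had -0.73 both ways. These pairs were picked after all 28 were seen, and no test was made.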
